A study of Mus musculus with 27 samples.

Results

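The integrated stress response was followed through 10 of its genes, Atf4, Atf5, Ddit3, Trib3, Asns, Chac1, Fgf21, Gdf15, Sesn2 and Ppp1r15a, in single skeletal myofibers of the mouse. The genes were chosen by symbol, as the array design names its probes, and not by their values. They are 10 of the 35527 gene names on the array and are read by 11 of its 55681 probes, with a pair of probes for Atf4. Each array measured the amplified RNA of 1 myofiber isolated from the tibialis anterior of a male mouse labelled 3 months old. There were 8 wild type (Wt) myofibers from 2 mice, 12 Smn1deltaSKM myofibers from 3 mice and 7 Smn1deltaSKM+AFS myofibers from 2 mice, the last with 4 and 3 myofibers.

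Smn1deltaSKM mice carry a floxed exon 7 of Smn1 on both alleles (Smn F7/F7) and HSA-Cre, a recombinase driven by the human alpha-skeletal actin promoter, so that the deletion occurs in muscle fibers and not in the motor neurons that innervate them. The Smn1deltaSKM+AFS mice had the same alleles and received amniotic fluid stem (AFS) cells, sorted for GFP and c-kit, through the tail vein. By the methods they were killed 1 month after an injection at 3 months, while the labels give 3 months for all groups. All myofibers were freed by collagenase digestion of the muscle and collected by hand.

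In the integrated stress response, kinases that sense misfolded protein, scarce amino acids, missing haem or double-stranded RNA phosphorylate the initiation factor eIF2, which lowers protein synthesis but favours translation of the ATF4 mRNA. ATF4 and its partners of the C/EBP family then turn on genes for amino acid uptake and synthesis, redox balance and, under lasting stress, cell death. In skeletal muscle the pathway is best known from mitochondrial disease, in which FGF21 and GDF15 are released from muscle into the blood. Since ATF4 is governed largely at translation, an array reads its mRNA and its target mRNAs, not its activity.

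ATF4 binds a composite element, the amino acid response element, whose core was searched as TGATGNAA on both strands in the RefSeq promoters of mouse build GRCm38.p6, from 250 bases before to 50 bases after each start site. All 10 genes had a promoter there, 12 promoters in all. The core occurred in 4 of the 12 promoters, those of 4 genes, against 3.97% of the 32851 promoters of the same length. The 10 genes were chosen as genes of this pathway, so this share is no test of it. Sequence outside the window was not searched, so a gene without a match may hold the core elsewhere. An AP-1 site, the target of FOS and JUN proteins, was searched as TGANTCA on both strands. It occurred in 1 of the 12 promoters, that of Ddit3, against 7.81% of all promoters. The ER stress element, at which ATF6 acts, stood in 0.119% of all promoters and in none of the 10 genes. No promoter of the 10 genes held more than one of these motifs. The matched stretches are shown to give the place of the searched letters, the response element core for Asns, Chac1, Fgf21 and Trib3 and the AP-1 site for Ddit3. They are printed along the strand of the gene with the match in capitals, and a match is a description of the letters, not a binding site.
Asns (chr6:7693214-7693243, minus strand, match 23 bases before the start): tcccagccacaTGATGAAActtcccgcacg
Chac1 (chr2:119351038-119351067, plus strand, match 193 bases before the start): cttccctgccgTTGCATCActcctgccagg
Fgf21 (chr7:45615611-45615640, minus strand, match 139 bases before the start): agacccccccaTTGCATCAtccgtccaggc
Trib3 (chr2:152344028-152344057, minus strand, match from base 15 of the transcript): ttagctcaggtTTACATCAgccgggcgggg
Ddit3 (chr10:127290543-127290568, plus strand, match 242 bases before the start): cgcgcgcaTGACTCActcacctcctc

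Levels below are log2 signals relative to the 75th percentile of the same array, and differences are between the means of mice. Between 23183 and 37595 of the probes gave a value on an array. The median was 25156 in Wt, 31433.5 in Smn1deltaSKM and 27431 in Smn1deltaSKM+AFS. Counts of arrays above background, as for Trib3 and Fgf21 below, thus depend on the array as well as on the level. The dimmer of the pair of Smn1 probes lay at 1.85 ± 0.0146 in Wt (SD, n = 2 mice), 0.16 ± 0.216 in Smn1deltaSKM (SD, n = 3) and 0.24 ± 0.821 in Smn1deltaSKM+AFS (SD, n = 2), and 11 of 12 Smn1deltaSKM myofibers lay below every Wt myofiber. Its difference from Wt was -1.68 in Smn1deltaSKM (limma, adjusted p = 0.0205), while the brighter probe gave a difference of 0.19 (limma, adjusted p = 0.712). Their place relative to exon 7 was not determined, so they check the labels only in part. A single slide held the 8 Wt arrays, and no other group was scanned on its day, so that slide, scan day and genotype cannot be told apart in any comparison with Wt.

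The 10 genes did not move together in Smn1deltaSKM. Ddit3 and Gdf15 rose, 6 other tested genes did not pass the test, and Trib3 and Fgf21 were read on too few arrays for the main comparison. Of the 17059 genes tested between Smn1deltaSKM and Wt, limma called 3679, or 21.6%, at an adjusted p under 0.05, with 7.66% higher and 13.9% lower. Of the 10 genes 8 were tested and 2 were called, a share near this background. Every Smn1deltaSKM mouse lay beyond both Wt mice for 3 of the 8 genes, Ddit3 and Gdf15 above and Chac1 below, and this was so for 55.3% of all genes with values in every mouse. The median difference over all genes was -0.13 in this comparison.

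**Figure D1:**
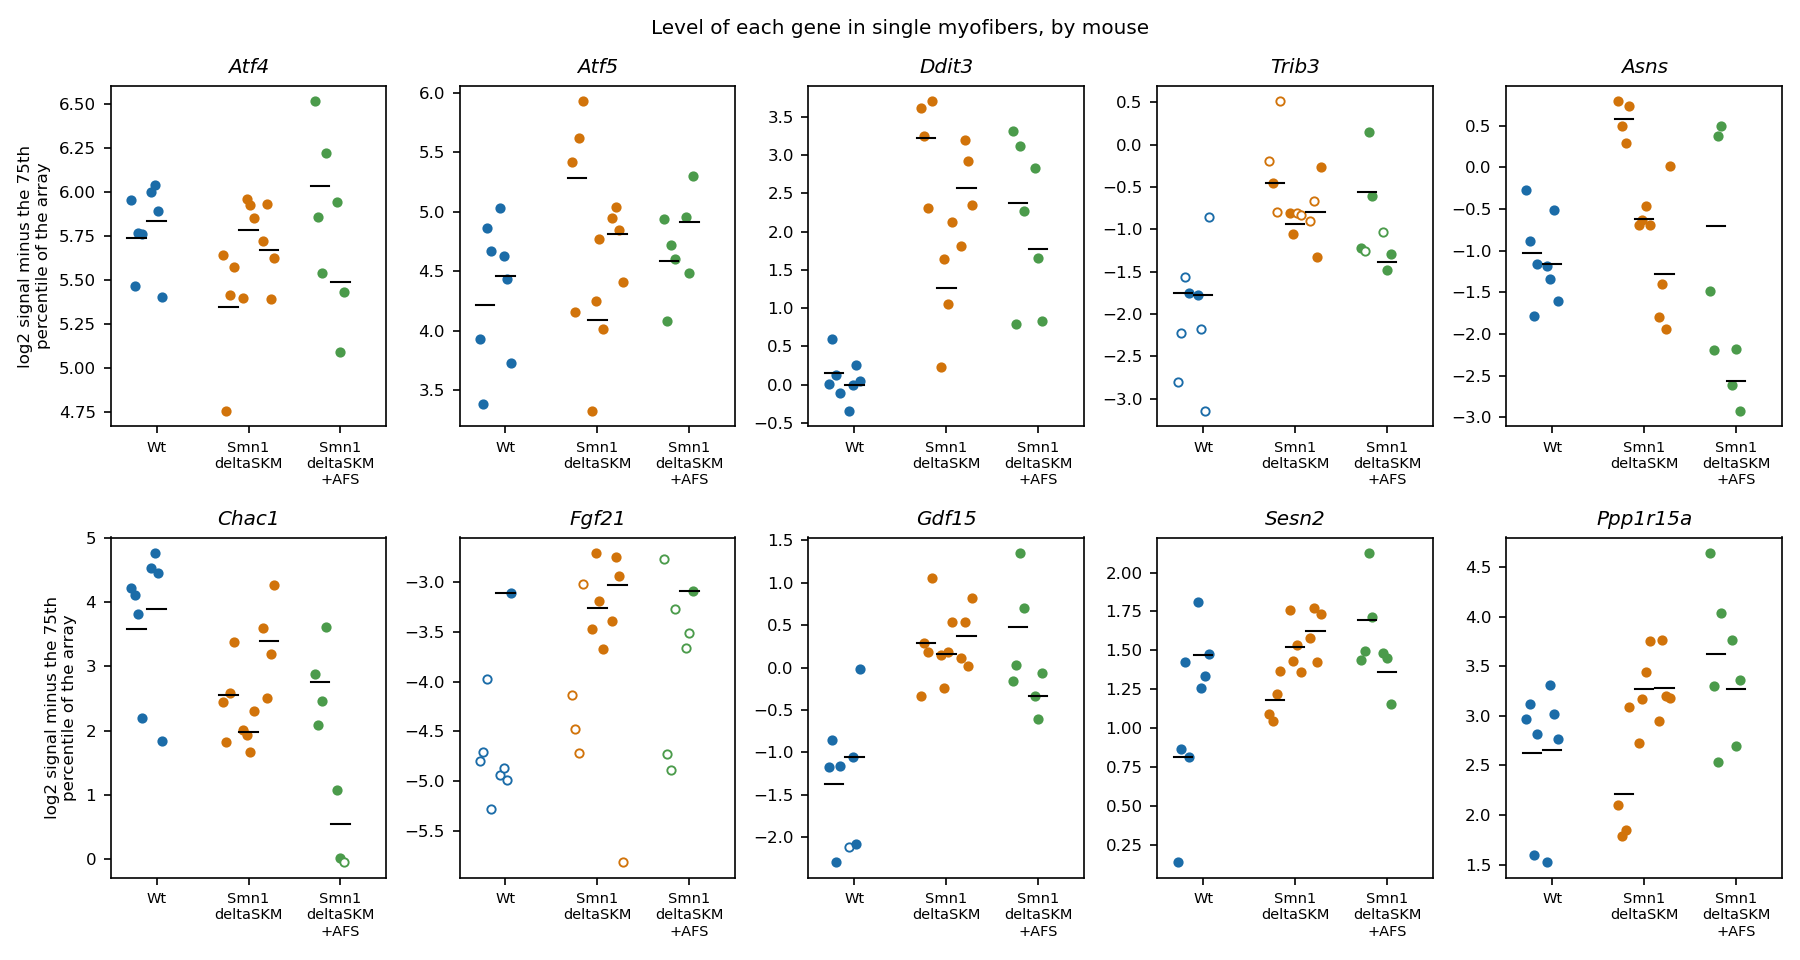
Level of each of the 10 genes in single myofibers (y axis, log2 signal minus the 75th percentile of the array, with its own scale in each panel) by group, each point 1 myofiber and each bar the mean of 1 mouse. Open points are spots not found or not well above background, which the means leave out. Of the 12 Smn1deltaSKM myofibers, 11 lie above all Wt myofibers for Ddit3, a separation whose share over all genes was not computed.

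Atf4, the transcription factor at the centre of the response, was read by a pair of probes at chr15:80086639-80086698 and chr15:80087902-80087961 of build mm9. The brighter one ranged over 5.41, 5.83 and 6.04 (lowest, median, highest) in Wt, 4.76, 5.63 and 5.96 in Smn1deltaSKM and 5.09, 5.86 and 6.52 in Smn1deltaSKM+AFS. The 3 ranges overlapped, although 3 of 12 Smn1deltaSKM myofibers lay below all Wt myofibers and 2 of 7 Smn1deltaSKM+AFS myofibers lay above all of them. The difference between Smn1deltaSKM and Wt was -0.19, with a 95% confidence interval from -0.84 to 0.47 (limma, adjusted p = 0.660), and its sign turned with quantile normalization (0.18). The dimmer probe differed by -0.18, with an interval from -1.08 to 0.71. No change of the Atf4 mRNA was detected with these mice, and the intervals leave room for a change of either sign.

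Atf5 encodes a related factor that is under similar translational control and has been tied to mitochondrial stress. Its level spanned 3.39, 4.53 and 5.03 in Wt, 3.33, 4.81 and 5.93 in Smn1deltaSKM and 4.08, 4.72 and 5.30 in Smn1deltaSKM+AFS. Of the 12 Smn1deltaSKM myofibers, 4 lay above all Wt myofibers, and the mouse means of that group ran from 4.09 to 5.28, on both sides of the Wt means of 4.21 and 4.46. The difference of 0.39 had an interval from -0.46 to 1.24 (limma, adjusted p = 0.458).

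Ddit3 encodes CHOP, the factor that ATF4 induces under lasting stress and that is associated with cell death. It lay at -0.34, 0.02 and 0.60 in Wt (lowest, median, highest), at 0.23, 2.33 and 3.70 in Smn1deltaSKM and at 0.79, 2.27 and 3.31 in Smn1deltaSKM+AFS. The Wt myofibers were narrowly grouped, 11 of 12 Smn1deltaSKM myofibers lay above all of them, and so did 7 of 7 Smn1deltaSKM+AFS myofibers. By mouse, the Smn1deltaSKM means were 3.22, 1.26 and 2.57, and those of Wt 0.15 and -0.01. The level was 4.85-fold higher in Smn1deltaSKM than in Wt, a log2 difference of 2.28 (standard error 0.525, 95% confidence interval 1.07 to 3.48, limma, adjusted p = 0.0232). The difference stayed between 1.84 and 2.82 when any 1 mouse was left out, but leaving out Wt mouse 1 (adjusted p = 0.159), Wt mouse 2 (0.121) or Smn1deltaSKM mouse 3 (0.0619) ended the call. With Wt mouse 1 or 2 left out, limma called 0 of all genes, and the unadjusted p was under 0.05 for 3612 and 4639 of them. Its probe spans 304 bases of mm9, chr10:126732518-126732821, against 58 to 60 for the probes of the other genes.

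Ppp1r15a encodes GADD34, the subunit that directs a phosphatase to eIF2 and so closes the response. Its level spanned 1.53, 2.89 and 3.31 in Wt, 1.79, 3.13 and 3.77 in Smn1deltaSKM and 2.53, 3.36 and 4.64 in Smn1deltaSKM+AFS. The 3 lowest Smn1deltaSKM values, 2.10, 1.79 and 1.85, were those of myofibers 1 to 3 of mouse 1, scanned on day 1, while the myofiber of that mouse scanned on day 2 lay at 3.09. Mouse 1 had a mean of 2.21 against 3.27 and 3.28 in the other mice of the group, all of whose myofibers were scanned on day 2. The difference from Wt was 0.28, with an interval from -0.57 to 1.14 (limma, adjusted p = 0.605). Without those 3 myofibers it was 0.57 (adjusted p = 0.102).

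Trib3 encodes a pseudokinase induced by ATF4 and CHOP that restrains ATF4 and AKT. Its probe was well above background on 4 of 8 Wt, 12 of 12 Smn1deltaSKM and 7 of 7 Smn1deltaSKM+AFS arrays, but 13 of its 27 spots were marked as not found by the scanner software. That left values on 2, 5 and 5 arrays, fewer than the main comparison required. When the signal of flagged spots was used as measured, the level ran from -3.14 to -0.85 in Wt, with a median of -1.98, and from -1.33 to 0.51 in Smn1deltaSKM, with a median of -0.80. Of the 12 Smn1deltaSKM myofibers 9 lay above all Wt myofibers, and 7 of 8 Wt myofibers lay below all of Smn1deltaSKM. The Wt values include the 4 spots not well above background, so the size of the difference is not settled. A fit of these signals over all 35527 genes, which called 7.16% as higher, gave a log2 difference of 1.40 (limma, adjusted p = 0.0321). It is no call of the main comparison. With flagged spots left out and no requirement on the number of arrays, the difference was 1.03 and was not called (adjusted p = 0.0771). The call was also lost without Wt mouse 1 (0.230), Wt mouse 2 (0.144), Smn1deltaSKM mouse 2 (0.0632) or Smn1deltaSKM mouse 3 (0.0696).

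Of the amino acid and glutathione enzymes, neither Asns nor Chac1 passed the test. Asns, which makes asparagine, lay at -1.78, -1.17 and -0.27 in Wt, at -1.94, -0.55 and 0.79 in Smn1deltaSKM and at -2.92, -2.18 and 0.49 in Smn1deltaSKM+AFS. Within Smn1deltaSKM the mouse means were 0.58, -0.62 and -1.28, so that mouse 1 lay above and mouse 3 below the Wt means of -1.02 and -1.16. In mouse 1 the 3 myofibers scanned on day 1 (0.79, 0.50 and 0.30) and the one scanned on day 2 (0.74) were alike. The difference from Wt was 0.65, with an interval from -0.82 to 2.13 (limma, adjusted p = 0.477).

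Chac1, which degrades glutathione and is among the most responsive ATF4 targets in cultured cells, went the other way from Ddit3. It lay at 1.85, 4.17 and 4.76 in Wt, at 1.66, 2.48 and 4.26 in Smn1deltaSKM and at 0.03, 2.28 and 3.62 in the 6 Smn1deltaSKM+AFS myofibers with a value. The highest 3 Wt myofibers lay above all 12 of Smn1deltaSKM, while the lowest Wt values, from 1 myofiber of each mouse, fell among those of Smn1deltaSKM. Mouse means were 3.59 and 3.90 in Wt against 2.56, 1.98 and 3.39 in Smn1deltaSKM. The difference of -1.10 did not pass the test (interval -2.56 to 0.37, limma, adjusted p = 0.235). Chac1 had an SD of 0.834 between myofibers of 1 mouse, at percentile 94.5 of all tested genes. Ddit3 followed with an SD of 0.733 (percentile 90.7) and Asns with 0.711 (89.4), against a median of 0.445 over all genes, while Atf4 (0.327, percentile 18.1) and Sesn2 (0.282, percentile 8.99) varied little.

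Of the pair of secreted hormones, Gdf15 rose and Fgf21 was mostly at background. Gdf15, a cytokine that acts on the hindbrain and is released from stressed muscle, lay at -2.29, -1.16 and -0.02 in the 7 Wt myofibers with a value, at -0.33, 0.18 and 1.05 in Smn1deltaSKM and at -0.61, -0.06 and 1.35 in Smn1deltaSKM+AFS. Only 1 Wt myofiber, at -0.02, reached into the range of Smn1deltaSKM, and 10 of 12 Smn1deltaSKM myofibers lay above all of Wt. Mouse means were -1.37 and -1.05 in Wt and 0.30, 0.16 and 0.37 in Smn1deltaSKM, closer together in that group than for any other of the 8 genes tested. Gdf15 was 2.80-fold higher in Smn1deltaSKM, a log2 difference of 1.49 (standard error 0.312, interval 0.77 to 2.20, limma, adjusted p = 0.0187). With normexp background correction, which adds an offset and so draws dim spots together, the difference was 0.88 (adjusted p = 0.0354). The call was lost when Wt mouse 1 (adjusted p = 0.169), Wt mouse 2 (0.0860) or Smn1deltaSKM mouse 3 (0.0528) was left out, and when slide entered as a random block (difference 1.57, adjusted p = 0.0595).

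Fgf21, a hormone of fasting and mitochondrial stress, was well above background on 1 of 8 Wt, 7 of 12 Smn1deltaSKM and 1 of 7 Smn1deltaSKM+AFS arrays. The 7 Smn1deltaSKM arrays were all those of mouse 2 and 3 of the 4 of mouse 3, none of mouse 1. They shared 1 slide, on which a level of -3.67 counted as above background. On other slides, -3.02 in Smn1deltaSKM and -2.76 in Smn1deltaSKM+AFS did not. Where a value existed it was low in all groups, -3.11 in the Wt myofiber, between -3.67 and -2.71 in Smn1deltaSKM and -3.09 in the Smn1deltaSKM+AFS myofiber. With the measured signal kept, the medians were -4.83, -3.43 and -3.51, and the difference between Smn1deltaSKM and Wt was 0.89 (limma, adjusted p = 0.125). Over the arrays with values alone it was -0.037, so no direction is given.

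Sesn2 encodes sestrin 2, which restrains mTORC1 when leucine is scarce. Its level spanned 0.14, 1.30 and 1.81 in Wt, 1.05, 1.43 and 1.77 in Smn1deltaSKM and 1.15, 1.48 and 2.13 in Smn1deltaSKM+AFS. The Smn1deltaSKM values lay inside the Wt range, and the difference was 0.30, with an interval from -0.40 to 1.01 (limma, adjusted p = 0.494). Its sign turned when Wt mouse 1 was left out (-0.026).

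Smn1deltaSKM+AFS myofibers were compared with Smn1deltaSKM to ask whether the injected cells altered these genes. No difference was detected: limma called 0.00% of the 16648 genes tested, with 532 genes but none of the 8 tested here at an unadjusted p under 0.05. With 2 and 3 mice the intervals were wide. For Ddit3 the difference was -0.28, with an interval from -1.48 to 0.92, and for Gdf15 it was -0.20, with an interval from -0.92 to 0.51. Both intervals include 0. Atf4 (0.16), Atf5 (0.02), Sesn2 (0.08) and Ppp1r15a (0.53) had intervals that reached both sides of 0, as did Trib3 with the measured signal kept (-0.37, interval -1.16 to 0.42).

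The largest differences between the treated and untreated mice were those of Asns, -1.20 with an interval from -2.67 to 0.27, and Chac1, -0.99 with an interval from -2.44 to 0.47. Both rested on Smn1deltaSKM+AFS mouse 2, whose means were -2.57 for Asns and 0.56 for Chac1 against -0.70 and 2.76 in mouse 1. Without that mouse the differences were -0.26 for Asns and 0.12 for Chac1. Both groups were scanned on the same 2 days, but only 1 slide held arrays of both, with 1 array of each. All other slides of these groups held 1 group alone, so slide and treatment cannot be fully told apart. All myofibers of Smn1deltaSKM+AFS mouse 2 were on a slide without Smn1deltaSKM arrays. Within scan day 2 the differences were -0.23 for Ddit3, -0.56 for Gdf15, -1.15 for Asns and -1.02 for Chac1, and with scan day as a block they were -0.26, -0.18, -1.16 and -0.84.

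**Figure D2:**
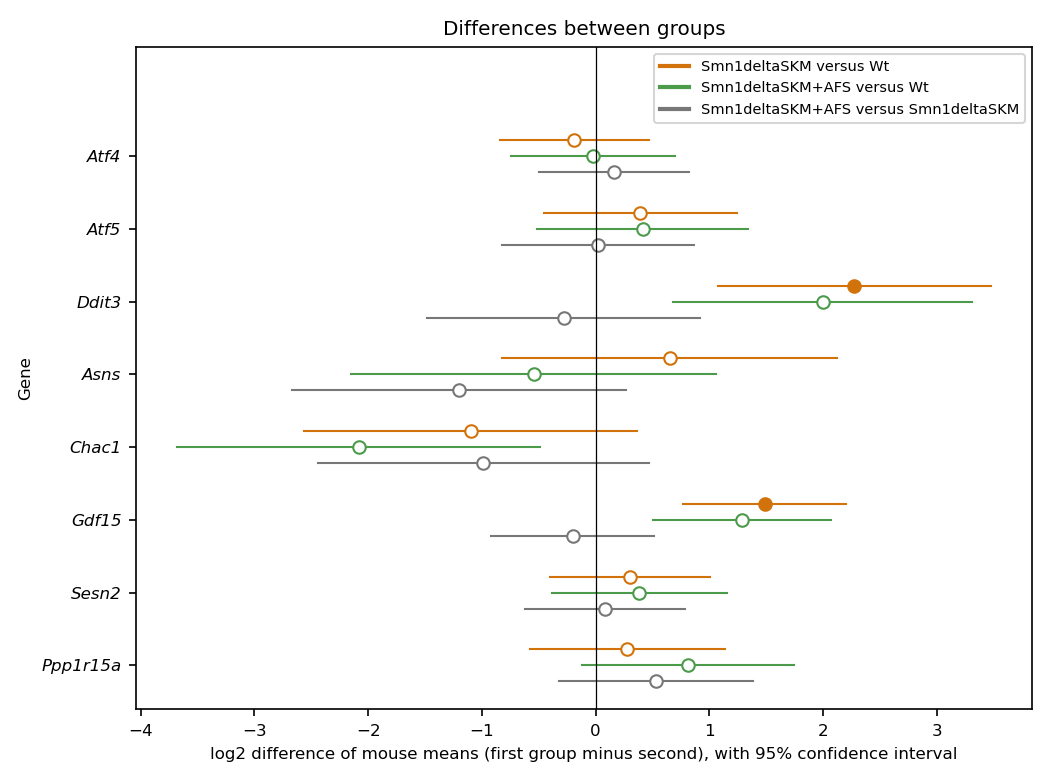
Differences between groups for the 8 tested genes (x axis, log2 difference of mouse means, first group minus second, with its 95% confidence interval), filled where limma's adjusted p is under 0.05. Ddit3 (2.28) and Gdf15 (1.49) in Smn1deltaSKM versus Wt are the 2 filled points.

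Against Wt, none of the 8 genes was called in Smn1deltaSKM+AFS, in a comparison that called 7.77% of all genes, and 3 of the 8 had an unadjusted p under 0.05. This comparison shares the Wt mice with that of Smn1deltaSKM and is given beside it, not as a second test. Ddit3 differed by 2.00 (interval 0.68 to 3.31, limma, adjusted p = 0.0686), Gdf15 by 1.29 (interval 0.50 to 2.07, adjusted p = 0.0564) and Chac1 by -2.08 (interval -3.68 to -0.48, adjusted p = 0.0959). Their intervals lie on 1 side of 0 although the adjusted p missed the threshold. For Chac1, the Smn1deltaSKM+AFS mice had means of 2.76 and 0.56, and without mouse 2 the difference was -0.98. Ppp1r15a differed by 0.81 (limma, adjusted p = 0.222), Atf5 by 0.41, Sesn2 by 0.39, Atf4 by -0.02 and Asns by -0.54, which turned to 0.39 without Smn1deltaSKM+AFS mouse 2.

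Other genes of the pathway were taken from lists, and their calls in Smn1deltaSKM versus Wt are read against the 21.6% of all genes called. Of 43 other ATF4 target genes 31 were tested, 7 rose and 3 fell, with a median difference of 0.16. That median was 0.33 with quantile normalization, 0.35 with median centring, 0.37 with normexp background correction and 0.29 in the authors' value table. Those with the largest rises were Hmox1, haem oxygenase (3.28, limma, adjusted p = 0.0156), Atf3, a stress-induced factor of the same family (2.87, adjusted p = 0.0100), and the transporters of large neutral and cationic amino acids Slc7a5 (2.29, adjusted p = 0.00684) and Slc7a1 (2.14, adjusted p = 0.0235). The genes that fell were Gpt2, an alanine aminotransferase (-2.33, limma, adjusted p = 0.0135), Ddit4, an mTORC1 inhibitor (-1.92, adjusted p = 0.0211), and Vldlr, a lipoprotein receptor (-1.37, adjusted p = 0.0309). Hmox1, Atf3 and Slc7a5 are also induced by pathways other than ATF4.

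The aminoacyl-tRNA synthetases, which load amino acids on tRNA and several of which are ATF4 targets, held no gene that rose. Of the 20 cytosolic ones 19 were tested and 7 fell, with a median of -0.51, or -0.29 with median centring of the arrays. The lowest were those for methionine, Mars (-2.02, limma, adjusted p = 0.0244), isoleucine, Iars (-1.90, adjusted p = 0.0116), cysteine, Cars (-1.44, adjusted p = 0.0197), and phenylalanine, Farsa (-1.36, adjusted p = 0.0139).

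Upstream of ATF4, 15 of the 18 genes for eIF2, its exchange factor, its kinases and their regulators were tested, none rose and 2 fell. The median was -0.42, and -0.21 with median centring or -0.22 with normexp. They were Eif2b2, a subunit of the exchange factor (-1.55, limma, adjusted p = 0.0104), and Eif2s2, the beta subunit of eIF2 (-0.96, adjusted p = 0.0497). The haem-sensing kinase Eif2ak1 differed by -1.01 and did not pass the test (limma, adjusted p = 0.0665), and the other eIF2 kinases were not tested. These are mRNA levels, and the arrays do not read the phosphorylation of eIF2.

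In the neighbouring branches of the stress response, genes of the endoplasmic reticulum had few calls. Of 17 tested genes Creld2 rose (1.35, limma, adjusted p = 0.0450) and Sel1l fell (-1.34, adjusted p = 0.0307), while Hspa5, the chaperone BiP by which this branch is commonly read, differed by -0.24 (adjusted p = 0.647). The median of -0.058 changed sign with quantile normalization (0.062) and when each array was centred on its median over probes seen on all 27 arrays (0.15). Of 13 genes of the mitochondrial unfolded protein response 5 fell and none rose, with a median of -0.85. They included the proteases Yme1l1 (-2.32, limma, adjusted p = 0.00750) and Spg7 (-1.91, adjusted p = 0.00922) and the chaperones Dnaja3 (-1.94, adjusted p = 0.0110) and Trap1 (-1.83, adjusted p = 0.00856). Of the genes not called, Hspa9 (1.02, limma, adjusted p = 0.0642) and Hspe1 (0.36) were higher. The rest were lower, from Lonp1 (-0.17) to Clpx (-1.48). With quantile normalization, that centring, normexp or the authors' value table, 1 gene of this list was called as higher.

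Immediate early and heat shock genes were read as well, both of which the handling of tissue can induce. Of 19 tested genes 5 rose and none fell in Smn1deltaSKM, with a median of 0.46, the largest being Myc (3.45, limma, adjusted p = 0.0301), Klf6 (2.91, adjusted p = 0.00898), Klf4 (2.47, adjusted p = 0.0292) and Egr1 (2.39, adjusted p = 0.0196). None of the 4 tested heat shock genes passed the test, and all were lower, from Dnajb1 (-2.02, limma, adjusted p = 0.108) to Hspb1 (-0.16, adjusted p = 0.737). Of the immediate early genes that were not called, Dusp1 (-1.51), Jun (-0.91) and Jund (-0.69) were lower. Fos, Junb, Ier3, Ier5, Ier2, Egr2 and Fosb were higher, from 0.077 for Fos to 1.71 for Fosb. The 5 genes that rose moved with Ddit3, Gdf15 and Atf3, and their part in those results was not tested.

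**Figure D3:**
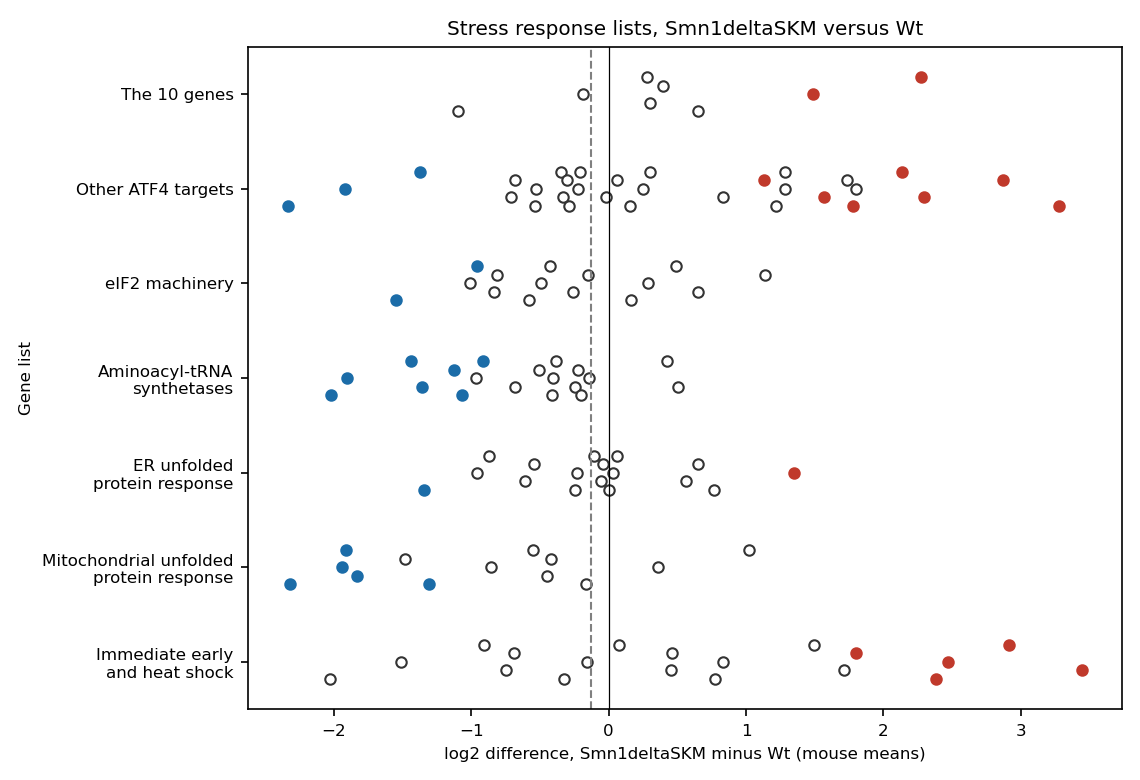
Difference of each tested gene (x axis, log2, Smn1deltaSKM minus Wt, mouse means) for the 10 genes and 6 lists, with red points called higher, blue points called lower and open points not called. The dashed line is the median of all tested genes (-0.13), and the 7 synthetases and 5 mitochondrial genes called all lie to its left.

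Between Smn1deltaSKM+AFS and Smn1deltaSKM no gene of any of these lists was called. Against Wt, where 7.77% of all genes were called in Smn1deltaSKM+AFS, 5 other ATF4 targets of 30 tested were called higher and 1 lower. The 4 largest rises were Atf3 (3.94, limma, adjusted p = 0.0135), Hmox1 (3.09, adjusted p = 0.0407), Vegfa (2.57, adjusted p = 0.0226) and Slc7a5 (2.02, adjusted p = 0.0175), and Ddit4 fell by 2.00 (adjusted p = 0.0426). Of the 19 synthetases tested 2 fell, a share near the background, Iars (-1.49, limma, adjusted p = 0.0441) and Farsa (-1.11, adjusted p = 0.0472), and of 14 eIF2 genes Eif2b2 fell (-1.33, adjusted p = 0.0331). Of 13 mitochondrial genes the chaperone Hspa9 rose (1.56, limma, adjusted p = 0.0449) and Yme1l1 fell (-2.31, adjusted p = 0.0167), and none of 18 genes of the endoplasmic reticulum list was called. Of the 19 immediate early and heat shock genes 4 rose, Klf4 (3.08, limma, adjusted p = 0.0377), Egr1 (3.08, adjusted p = 0.0246), Klf6 (2.65, adjusted p = 0.0246) and Fosl2 (2.05, adjusted p = 0.0211). None of these calls held without Wt mouse 1, Wt mouse 2 or Smn1deltaSKM+AFS mouse 1, where limma called 0 of the 16648 genes (2578, 3301 and 2783 at an unadjusted p under 0.05). Without Smn1deltaSKM+AFS mouse 2 it called 111 genes, against 1293 with all mice.

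Markers of muscle fibers were high in all groups. Their summed signal over 16 genes, relative to the 75th percentile on a linear scale, was 3227 to 5315 in Wt, 2195 to 3670 in Smn1deltaSKM and 3377 to 4303 in Smn1deltaSKM+AFS. Of 15 tested muscle markers 4 were lower and 1, Myh1, higher in Smn1deltaSKM than in Wt (2.20, limma, adjusted p = 0.0229), and Myh2 was well above background on no Wt array. The lower calls numbered 1 with quantile normalization or the authors' value table, 2 with median centring and 5 with normexp. With the measured signal kept, none of these markers was called higher. Markers of other cells were summed likewise. In Wt, Smn1deltaSKM and Smn1deltaSKM+AFS in turn, the 8 endothelial genes reached 8.95 to 25.7, 13.1 to 25.1 and 16.2 to 40.0, the 8 stromal genes 1.12 to 118, 2.21 to 35.0 and 2.63 to 24.4, and the 8 immune genes 199 to 315, 188 to 259 and 225 to 309. The ranges of these 3 lists overlapped between the groups. Of the 3 endothelial genes tested in Smn1deltaSKM versus Wt, Vwf was called lower (-1.12, limma, adjusted p = 0.0243). Kdr (0.30) and Cldn5 (1.65) were higher and not called. The stromal medians were 3.00, 11.8 and 15.8. Of the stromal genes 4 were tested in Smn1deltaSKM versus Wt and none was called, with a median difference of 0.84 and values from -0.097 for Thy1 to 1.20 for Col1a2. Pdgfra was well above background on no Wt and no Smn1deltaSKM+AFS array. Of the 5 immune genes tested in Smn1deltaSKM versus Wt, Ptprc was called higher (1.33, limma, adjusted p = 0.0219). The median difference of the 5 was 0.75. Cd14 (0.98) and Cd3e (0.75) were higher and Itgam (-0.14) and Csf1r (-0.50) lower, none of them called. Itgam was the brightest of the 5, with a Wt mean of 7.84, so the immune sum says little of the dimmer genes. The 6 satellite cell genes reached 3.15 to 4.95, 1.67 to 2.77 and 1.43 to 3.21, the 6 Schwann cell and erythrocyte genes 0.304 to 32.1, 1.04 to 29.2 and 1.86 to 40.3, and the 5 proliferation genes 0.667 to 1.36, 1.52 to 2.21 and 1.15 to 1.87. The satellite cell sums were lower in every Smn1deltaSKM than in every Wt myofiber. The 2 tested satellite cell genes went opposite ways. Itga7, which muscle fibers express too, fell (-1.51, limma, adjusted p = 0.0126). Myf5 differed by 0.44 and did not pass the test. Itga7 was the brighter, with means of 1.92 in Wt and 0.41 in Smn1deltaSKM, against -1.70 and -1.26 for Myf5. The satellite cell sum thus says little of the dimmer genes. Whether fewer such cells, less RNA per cell or less Itga7 RNA of the fiber itself lowered the sum was not tested. The proliferation sums were higher in every Smn1deltaSKM than in every Wt myofiber, a separation whose share over all genes was not computed. These sums keep signals at background, and none of the 5 genes was well above background on every Wt array. Only Cdk1 was tested, with a difference of 0.81 that was not called (limma, adjusted p = 0.0751). The part of these cell type markers in the differences of Ddit3, Gdf15 and Trib3 was not tested.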

How the data were processed

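Labelled cDNA of 27 single myofibers, amplified in 18 cycles, was hybridised in 1 colour to Agilent SurePrint G3 mouse arrays, 1 array each. Per the file headers, the deposited intensity was background-subtracted and detrended within the array by Agilent Feature Extraction 10.7.3.1, and not scaled between arrays. The deposited value table of the authors holds linear normalized signal, equal in distribution between arrays, and served as an alternative after a log2 transformation. Here log2 intensities were set relative to the 75th percentile of each array. Spots not found, not well above background or uneven were left out, and probes with values on 75% of the arrays compared were kept (20 arrays for Smn1deltaSKM versus Wt and 27 for the other comparisons). The brightest probe stood for a gene. The methods compared myofibers by SAM. Here myofibers of a mouse were averaged, since they are not independent, and limma 3.58.1 in R 4.3.3 compared the means of all 7 mice, with Benjamini-Hochberg adjustment over all genes and a threshold of 0.05. Precision is limited by the number of mice and arrays.

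The 10 genes and all lists were chosen with earlier results of these data known. Named are all 10 genes and, per list, direction and comparison, at most 4 called genes with the largest difference, with Smn1 and markers as checks. Eif2ak1, Hspa5 and the uncalled immediate early, heat shock, mitochondrial, endothelial, stromal, immune, satellite cell and proliferation genes were named after their values were seen. Probe coordinates are those of the files (mm9). Alternatives were quantile normalization, median centring, normexp with an offset of 50, the authors' table, other filters, all probes of a gene, myofibers as replicates, slide, scan day and mouse number as blocks, and each mouse left out. The fit was tested on simulated data. These held independent noise for each myofiber and no mouse or slide effect, so they do not show how such effects bear on the calls.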

Additional observations from a re-analysis of the deposited data

How the results depend on the processing

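Of the values of single genes under the alternatives, 519 of 587 kept their direction and their side of the threshold, 14 lost and 17 gained a call, and 37 changed sign, all of the last in genes and comparisons without a call. Of the counts of calls, 110 of 178 stayed within 1.5 times. In Smn1deltaSKM versus Wt, 1 of the 10 genes was called with values required on every array, where Gdf15 was not tested, and 1 with slide as a random block, and 0 to 2 with a mouse left out. Without Smn1deltaSKM myofibers 1 to 3, which earlier results set apart, Ddit3 (2.44) and Gdf15 (1.74) remained called. Against 0 in Smn1deltaSKM+AFS versus Wt, 1 was called with the measured signal kept, 3 with the mouse as a random block, 3 with myofibers as replicates, 2 with only the mice compared, 1 with the mouse number as a replicate block, and 0 to 3 with a mouse left out.

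The mouse numbers are those of separate animals. Deviations of mice that share a number correlated between -0.06 and 0.31. In a group of 2 mice the deviations mirror each other, and Wt and Smn1deltaSKM+AFS gave the same value for both numbers. These correlations therefore cannot show whether a shared number means pairing. In Smn1deltaSKM versus Wt the replicate block left the 10 genes at 2 calls. It moved the synthetases to 4, the eIF2 genes to 1 and the endoplasmic reticulum genes to 0.

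The lists moved further. The eIF2 genes (2) had 1 call with quantile normalization, centring, the authors' table, no filter, only the mice compared or slide as a block, 5 with mouse as a random block, 7 with myofibers as replicates and 0 to 7 with a mouse left out. Other ATF4 targets (10) had 6 with values on every array, 6 with slide, 18 with myofibers and 0 to 13. The synthetases (7) had 4 with quantile normalization, centring, normexp, the authors' table, no filter with the measured signal kept or only the mice compared, 3 with slide and 0 to 11. The endoplasmic reticulum genes (2) had 1 with quantile normalization, centring, normexp, the measured signal kept, values on every array, only the mice compared or slide, 4 with mouse as a random block, 6 with myofibers and 0 to 3. The mitochondrial genes (5) had 9 with myofibers and 0 to 7. The causes were not tested.

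Over all genes the share of calls that were higher was 35.5%, and 42.9% with quantile normalization, 56.2% with centring, which moved the median of all genes from -0.13 to 0.08, and 45.7% with the measured signal kept. The count of calls was 3679, and 6009 with mouse as a random block, 9248 with myofibers, 1847 with slide, 2247 with the replicate block, 7364, 1344 and 1576 without Smn1deltaSKM mouse 1, 2 or 3.

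Sign changes in Smn1deltaSKM versus Wt were those of Atf4 with quantile normalization (0.18), centring (0.030) and the authors' table (0.19), of Fgf21 over values alone (-0.037) and of Sesn2, -0.026 to 0.63 with a mouse left out. In Smn1deltaSKM+AFS versus Smn1deltaSKM, Atf4 was -0.076 with quantile normalization and -0.077 with the authors' table. Atf5 was -0.14 with quantile normalization, -0.069 with centring, -0.098 with normexp, -0.15 with the authors' table, -0.0025 with myofibers, -0.44 with slide, -0.19 without Smn1deltaSKM myofibers 1 to 3 and -0.10 within scan day 2. Sesn2 was -0.0058 with centring, -0.010 with normexp and -0.037 within scan day 2. With a mouse left out in this comparison, Atf4 ran from -0.11 to 0.43, Atf5 from -0.30 to 0.30, Sesn2 from -0.081 to 0.25, Ddit3 from -0.82 to 0.15, Chac1 from -2.09 to 0.12, Gdf15 from -0.61 to 0.21 and Fgf21, with the measured signal kept, from -0.22 to 0.27. In Smn1deltaSKM+AFS versus Wt, Atf4 was 0.11 with quantile normalization, 0.10 with centring, 0.11 with the authors' table, 0.015 with myofibers and 0.065 with slide, and with a mouse left out Atf4 ran from -0.30 to 0.25 and Asns from -1.48 to 0.39.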
